A study of Homo sapiens with 12 samples.

Results

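The genes of glucose breakdown, the pentose phosphate pathway and the response to low oxygen were followed in MCF-12A breast epithelial cells given TGFbeta1. The group holds 38 genes chosen by symbol for their known roles, and each library's FPKM over all listed transcripts of a gene was summed. All 38 were listed in both deposited tables, which hold 13410 and 11504 genes (13588 genes in either). By role the members are 11 upper glycolysis genes (from hexokinase to triose phosphate isomerase, with the enzymes that set the activator of phosphofructokinase), 6 lower glycolysis genes, 5 genes of pyruvate use, 3 pentose phosphate genes, 4 oxygen sensing genes and 9 targets of the hypoxia-inducible factors. RNA levels alone were measured, and neither oxygen nor metabolites were.

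The 2 groups were MCF-12A cells treated with TGFbeta1, a growth factor that signals through SMAD proteins, and control cells of the same line, with 6 libraries each. MCF-12A is an established epithelial line from non-tumour breast tissue, so all libraries share 1 cell line. The labels give neither a dose nor a duration. Total RNA was sequenced, and the values are FPKM, the fragments of a transcript scaled by its length and by the library's mapped fragments. Libraries 1 to 3 of each group are in 1 table, called here the first set, and libraries 4 to 6 in another, called the second set. Whether the replicates were separate cultures is not in the labels, so p-values speak only of variation among the libraries, which may be technical.

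Glycolysis turns glucose into pyruvate, which either enters the mitochondria through pyruvate dehydrogenase or is reduced to lactate. The pentose phosphate pathway branches off near the top of glycolysis and yields reducing power and ribose. When oxygen is short, the prolyl hydroxylases of the EGLN family no longer mark the alpha subunits encoded by HIF1A and EPAS1 for breakdown, and the stabilised factors raise the RNA of many glycolysis genes and of targets such as CA9, binding DNA with the core letters ACGTG or GCGTG.

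The 250 bases before a transcription start are printed for 5 of the members that passed the test in the first set, to show where these letters stand. Windows of the other called members are not printed, so these 5 do not show how often called members carry the letters. They come from RefSeq on GRCh38.p14, and all 5 genes lie on the plus strand. Capitals mark ACGTG or GCGTG on either strand, so CACGT is ACGTG read on the opposite strand and CACGTG holds an overlapping match on each strand. The windows are CA9 at chr9:35673678-35673927, DDIT4 at chr10:72273674-72273923, ADM at chr11:10304823-10305072, ENO2 at chr12:6914330-6914579, and for HK2, which has 2 listed starts, chr2:74833877-74834126 and chr2:74834920-74835169.
CA9: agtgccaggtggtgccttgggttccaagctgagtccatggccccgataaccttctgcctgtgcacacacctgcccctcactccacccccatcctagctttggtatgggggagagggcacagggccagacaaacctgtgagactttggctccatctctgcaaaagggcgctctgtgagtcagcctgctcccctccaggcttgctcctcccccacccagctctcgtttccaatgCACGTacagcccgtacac
DDIT4: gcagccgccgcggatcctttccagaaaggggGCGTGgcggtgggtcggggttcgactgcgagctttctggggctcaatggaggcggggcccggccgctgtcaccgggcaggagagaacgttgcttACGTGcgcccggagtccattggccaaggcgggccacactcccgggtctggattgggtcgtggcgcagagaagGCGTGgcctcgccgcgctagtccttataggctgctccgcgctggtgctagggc
ADM: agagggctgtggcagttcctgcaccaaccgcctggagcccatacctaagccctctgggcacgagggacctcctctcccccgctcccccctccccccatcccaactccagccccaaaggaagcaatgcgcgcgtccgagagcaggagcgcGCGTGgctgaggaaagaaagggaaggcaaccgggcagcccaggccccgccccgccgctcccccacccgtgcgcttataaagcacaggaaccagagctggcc
ENO2: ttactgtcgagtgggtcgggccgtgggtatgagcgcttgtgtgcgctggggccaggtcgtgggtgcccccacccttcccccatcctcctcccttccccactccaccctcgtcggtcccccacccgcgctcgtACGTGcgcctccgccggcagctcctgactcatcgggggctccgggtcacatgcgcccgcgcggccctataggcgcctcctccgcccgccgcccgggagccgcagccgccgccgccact
HK2 start 1: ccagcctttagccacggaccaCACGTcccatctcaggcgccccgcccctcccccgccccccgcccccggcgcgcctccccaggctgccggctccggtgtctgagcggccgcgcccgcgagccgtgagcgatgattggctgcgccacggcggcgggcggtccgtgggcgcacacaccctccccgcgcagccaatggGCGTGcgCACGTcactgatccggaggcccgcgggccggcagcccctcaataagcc
HK2 start 2: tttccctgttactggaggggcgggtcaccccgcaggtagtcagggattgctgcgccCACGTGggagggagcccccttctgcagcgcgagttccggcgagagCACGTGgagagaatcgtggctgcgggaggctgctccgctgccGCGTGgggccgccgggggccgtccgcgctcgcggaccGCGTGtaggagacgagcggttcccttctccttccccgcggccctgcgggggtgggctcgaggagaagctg

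In CA9 the single match began at position -18, counted from the start site, and in ENO2 at position -118. ADM held 1 match, a GCGTG at position -101. DDIT4 held 1 ACGTG and 2 GCGTG, and the windows of HK2 held 2 and 4 matches to ACGTG with 1 and 2 to GCGTG. RefSeq's promoter windows matched 36 of the 38 members, with 62 starts, and held none for BNIP3L and NDRG1. ACGTG stood in 38.7% of the members' windows and in 18.5% of all 35116 windows of the same length. GCGTG stood in 38.7% and 32.2%, and 1 or the other in 61.3% and 43.2%. Of the 36 matched members, 30 held a match in at least 1 window. These are matches of letters, not binding sites, and the members' windows include genes chosen as targets of these factors.

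The libraries were first checked against their labels with 5 genes that TGFbeta is known to raise. In the first set all 5 (SMAD7, ITGB6, FN1, TGFBI and COL1A1) passed the test in the upward direction, with log2 changes of 1.27 to 3.70. None of the 4 that could be tested in the second set passed it, with log2 changes of -1.42 to 0.02, and COL1A1 stood under the filter. Of the 4, FN1 and TGFBI were at an unadjusted p under 0.05 (limma), as were 1182 of all 10579 tested genes. Treated libraries of these 2 check genes all lay below the controls (log2 change -0.74 and -1.42), as for 9.62% of all tested genes. COL1A1, untested, had means of 0.713 FPKM in treated libraries and 0.439 FPKM in controls, with all treated libraries higher. The second set's treated libraries are therefore called "labelled TGFbeta1" throughout. The first set's libraries had FPKM totals of 291801.6 to 318269.5 and those of the second set 338968.0 to 358432.6. Since no counts were used, depth and counting error are unknown. The defining markers of the labelled cell type were present, with all 8 epithelial and basal epithelial markers listed in both tables. The 4 basal markers summed to 1631 to 1694 FPKM in TGFbeta1 libraries, against 2081 to 2822 in controls of the first set, and to 1399.7 to 1580.2 FPKM in libraries labelled TGFbeta1, against 1359.6 to 1599.8 in controls of the second. The 4 general epithelial markers summed to 272 to 514 FPKM in TGFbeta1 libraries, against 415 to 501 in controls of the first set, and to 354 to 396 FPKM in libraries labelled TGFbeta1, against 304 to 336 in controls of the second. The leukocyte genes PTPRC and CD3E and the endothelial genes PECAM1, VWF and CDH5 were listed in neither table. Of 3 fibroblast markers PDGFRB was not listed, and the sum of DCN and COL1A1 was 13.7 to 16.9 FPKM in TGFbeta1 libraries, against 1.56 to 1.84 in controls of the first set. It was 11.4 to 14.9 FPKM in libraries labelled TGFbeta1, against 27.5 to 31.3 in controls of the second set. In the first set 2 of the 4 general epithelial markers passed the test downward, while another had a log2 change of 0.82. Of the 4 basal markers 1 passed it downward, where 11.9% of all tested genes did. DCN and COL1A1 passed it upward, where 9.00% did. In the second set DCN, the only fibroblast marker tested, fell (limma, log2 change -1.14, adjusted p = 0.038), where 0.151% of all tested genes did. The part of these markers in the changes below was not tested.

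In the first set, 11 members passed the test, a limma fit on log2(FPKM + 1) over all genes with a mean of at least 1 FPKM, at a Benjamini-Hochberg adjusted p under 0.05. Those that rose were PFKP, ENO2 and NDRG1, and those that fell were HK2, GPI, PFKM, LDHB, PDHA1, CA9, ADM and DDIT4. Of 37 tested members 3 rose and 8 fell, while 9.00% of all 10454 tested genes rose and 11.9% fell (20.9% in either direction). The members' median log2 change was -0.14 and that of all tested genes -0.05. All TGFbeta1 libraries lay above all controls for 6 of the 37 members (16.2%), against 18.2% of all tested genes, and below all controls for 14 (37.8%), against 25.1%. With libraries rescaled to an equal sum, 57.7% of all genes called were higher, against 43.0% as deposited. On the log2(FPKM + 1) scale the change of genes with low values is understated. In whole-culture RNA, fewer cells with a transcript and less of it per cell cannot be told apart.

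**Figure D1:**
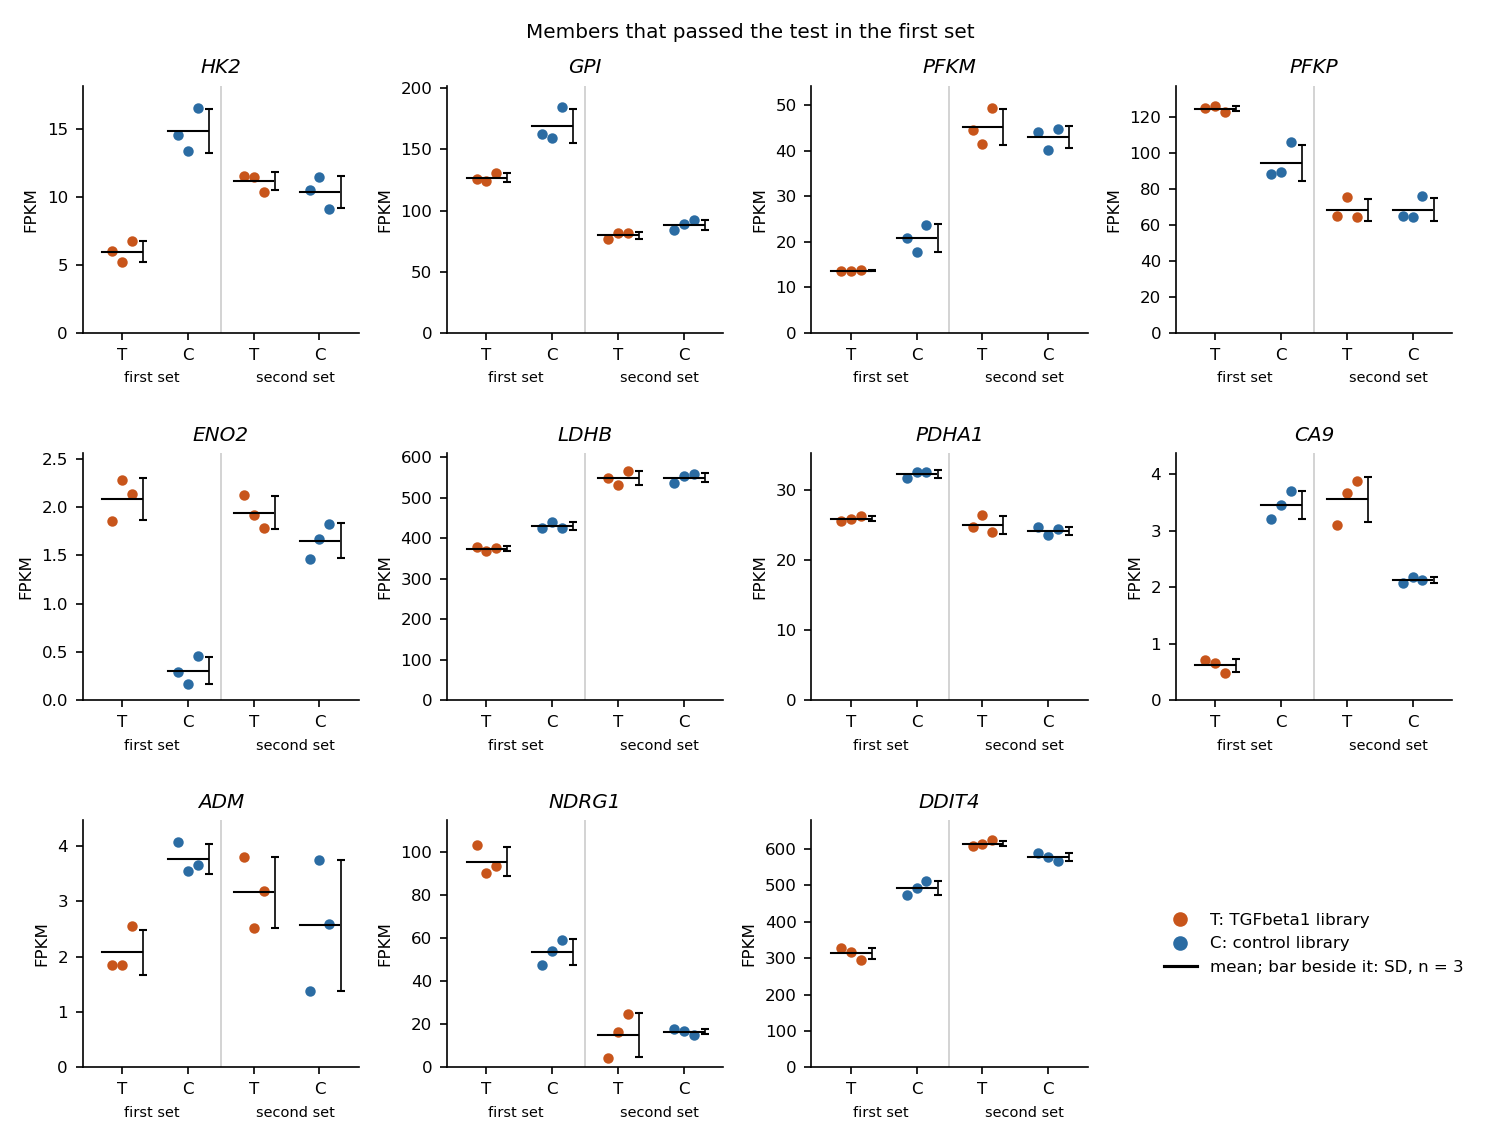
Level (FPKM, linear axis from 0) of the 11 members that passed the test in the first set, in TGFbeta1 (T) and control (C) libraries of each set. Points are libraries, lines are means and bars are SD (n = 3). In the first set the groups do not overlap in any of the 11 panels, while in the second set CA9, GPI and DDIT4 are the panels without overlap.

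The largest fall among the tested members was that of CA9, the membrane carbonic anhydrase that hydrates carbon dioxide at the cell surface and a widely used sign of HIF activity. It had 0.703, 0.662 and 0.482 FPKM in TGFbeta1 libraries, against 3.20, 3.45 and 3.699 FPKM in controls. Every treated library was under every control by more than the spread within either group. The log2 change was -1.46 (SE 0.10, adjusted p = 0.00064). All treated libraries were under 1 FPKM, so only its controls carried CA9 past the filter of 1 FPKM. CA9 (ENSG00000107159.12_1) lies on chromosome 9, 35673853 to 35681156 on hg19, and is listed with a single transcript. DDIT4 (ENSG00000168209.4_1; chromosome 10, 74033678 to 74035794), an inhibitor of mTOR signalling, is also listed with a single transcript. DDIT4 had 328, 316 and 296 FPKM in TGFbeta1 libraries, against 475, 493 and 511 FPKM in controls, without overlap (log2 change -0.65, SE 0.06, adjusted p = 0.00167). ADM, which encodes the vasodilator peptide adrenomedullin, had 1.84, 1.84 and 2.55 FPKM in TGFbeta1 libraries, against 4.07, 3.55 and 3.66 FPKM in controls. The groups did not overlap, and the log2 change was -0.64 (SE 0.12, adjusted p = 0.0191), a call lost with the replicate number as a block (adjusted p = 0.0666) and without TGFbeta1 1, TGFbeta1 2, control 1 or control 2 (0.0519 to 0.0659).

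NDRG1, a cytoplasmic protein gene that responds to stress and differentiation and is raised by HIF, changed in the other direction. It had 103, 89.9 and 93.1 FPKM in TGFbeta1 libraries, against 47.4, 53.8 and 59.2 FPKM in controls. The lowest treated library stood well above the highest control (log2 change 0.83, SE 0.10, adjusted p = 0.00445). Of the 9 HIF target members 1 rose and 3 fell, where 9.00% of all tested genes rose and 11.9% fell. Their median log2 change was -0.20. CA9, DDIT4, NDRG1 and ENO2 kept their first-set calls in every alternative setting that gave them a value. DDIT4 and NDRG1 had values in all 15 alternatives, CA9 in 14 and ENO2 in 13. ENO2 had means of 2.09 FPKM in TGFbeta1 libraries and 0.305 FPKM in controls, so only its treated libraries carried it past the filter of 1 FPKM. Leaving out TGFbeta1 2 took its mean below 1 FPKM, and a minimum of 5 FPKM excluded it. Its call could therefore not be judged in these settings.

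The other 5 HIF target members did not pass the test. The mitophagy receptor gene BNIP3 had 23.8, 26.9 and 25.3 FPKM in TGFbeta1 libraries, against 28.1, 28.5 and 30.8 FPKM in controls (log2 change -0.20, adjusted p = 0.133). ANKRD37, an ankyrin repeat protein gene, had 1.398, 1.57 and 1.196 FPKM in TGFbeta1 libraries, against 0.847, 1.01 and 0.898 FPKM in controls (log2 change 0.31, adjusted p = 0.0857). The groups of both genes were apart, in opposite directions. KDM3A, a histone demethylase gene, had 8.91, 10.03 and 9.87 FPKM in TGFbeta1 libraries, against 7.73, 7.66 and 8.07 FPKM in controls. Its log2 change was 0.26 (adjusted p = 0.0643), and its adjusted p was 0.0318 to 0.0407 under the 3 other scalings. Over transcripts listed in both tables the change was -0.010 (adjusted p = 0.981). BNIP3L and MXI1, in which a single library stood apart, are given with the other such genes further on.

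Upper glycolysis had 1 higher and 3 lower members of 11 (9.00% and 11.9% of all tested genes), with a median log2 change of -0.14. HK2, the inducible hexokinase that traps glucose in the cell by phosphorylating it, had 6.005, 5.196 and 6.77 FPKM in TGFbeta1 libraries, against 14.6, 13.4 and 16.6 FPKM in controls. All treated libraries were under all controls (log2 change -1.19, SE 0.12, adjusted p = 0.00246). HK2 (ENSG00000159399.9_2; chromosome 2, 75061108 to 75120486 on hg19) was listed with 2 transcripts in the first set. Over ENST00000290573.6_1, which is also listed in the second set, it had 5.929, 4.206 and 6.062 FPKM in TGFbeta1 libraries, against 6.280, 13.102 and 14.100 FPKM in controls. Control 1 was then close to the treated libraries and the call was lost (adjusted p = 0.123). HK1, the hexokinase found in most tissues, had 111, 111 and 106 FPKM in TGFbeta1 libraries, against 120.5, 98.2 and 97.8 FPKM in controls (log2 change 0.06, adjusted p = 0.722).

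GPI, the glucose phosphate isomerase gene, had 126, 124 and 131 FPKM in TGFbeta1 libraries, against 163, 159.7 and 185 FPKM in controls (log2 change -0.41, SE 0.08, adjusted p = 0.0169). The groups were apart, but the call was lost without TGFbeta1 1 (adjusted p = 0.0593) or TGFbeta1 2 (0.0629), and over transcripts listed in both tables (0.698). The last of these leaves out ENST00000356487.9_1, which carried 121.908, 118.049 and 122.991 FPKM in TGFbeta1 libraries, against 150.835, 152.221 and 174.544 FPKM in controls, and which stands in the second table under another version.

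Phosphofructokinase commits sugar to glycolysis, and its platelet, muscle and liver isozymes did not move together. PFKP, the platelet isozyme, had 125, 126 and 123 FPKM in TGFbeta1 libraries, against 88.3, 89.3 and 106 FPKM in controls (log2 change 0.40, SE 0.08, adjusted p = 0.025). PFKM, the muscle isozyme, had 13.5, 13.7 and 13.9 FPKM in TGFbeta1 libraries, against 21.0, 17.8 and 23.8 FPKM in controls (log2 change -0.56, SE 0.11, adjusted p = 0.0214). Treated libraries of both genes lay within a narrow range outside the controls. PFKL, the liver isozyme, had 30.3, 30.7 and 28.05 FPKM in TGFbeta1 libraries, against 32.8, 32.8 and 38.01 FPKM in controls, and did not pass the test (log2 change -0.21, adjusted p = 0.147). The PFKP call was lost with the replicate block (adjusted p = 0.0762) and without any single library but control 3 (0.0647 to 0.0813). That of PFKM was lost with the block (0.0577), over transcripts listed in both tables (0.16), and without control 1 or any TGFbeta1 library (0.0608 to 0.071).

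The remaining upper glycolysis members did not pass the test, and their groups overlapped. PFKFB3 and PFKFB4 encode enzymes that make and remove an activator of phosphofructokinase. PFKFB3 had 11.8, 10.8 and 5.50 FPKM in TGFbeta1 libraries, against 9.59, 4.07 and 10.5 FPKM in controls, with 1 low library in each group. PFKFB4 had 2.09, 1.02 and 2.33 FPKM in TGFbeta1 libraries, against 1.90, 1.84 and 2.37 FPKM in controls. The aldolase genes ALDOA and ALDOC and the triose phosphate isomerase gene TPI1 had log2 changes of -0.14, 0.13 and -0.08, with adjusted p of 0.296, 0.538 and 0.726.

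Of the 6 lower glycolysis members 1 rose (9.00% of all tested genes), with a median log2 change of 0.08. ENO2, the enolase isozyme best known from neurons, had 1.85, 2.28 and 2.13 FPKM in TGFbeta1 libraries, against 0.294, 0.168 and 0.454 FPKM in controls. Every treated library exceeded every control several-fold (log2 change 1.25, SE 0.12, adjusted p = 0.00203), although the gene is at a low level (ENSG00000111674.8_2; chromosome 12, 7023491 to 7032859 on hg19). The common enolase ENO1 had 752, 741 and 785 FPKM in TGFbeta1 libraries, against 855, 857 and 1009.6 FPKM in controls. These groups were apart in the other direction, without passing the test (log2 change -0.25, adjusted p = 0.0779).

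GAPDH, the glyceraldehyde phosphate dehydrogenase that is often used as a reference gene, had 1102, 1045 and 1418 FPKM in TGFbeta1 libraries, against 1301, 1588 and 2006 FPKM in controls (log2 change -0.45, adjusted p = 0.163). The groups overlapped through TGFbeta1 3 and control 1. Its transcript ENST00000396856.5_1 was listed at 0.000 in TGFbeta1 1, TGFbeta1 2 and control 1. It held 619.772, 744.087 and 642.829 FPKM in TGFbeta1 3, control 2 and control 3, and its part in the gene's change was not tested. PGK1, the phosphoglycerate kinase gene, and PKM, the pyruvate kinase gene, had log2 changes of 0.09 and 0.07 (adjusted p = 0.682 and 0.557). GAPDH, PGK1, PGAM1 and ENO1 have near-identical processed copies in the genome, so reads can be split between loci and these values are uncertain.

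Among the 5 genes of pyruvate use, 2 fell, where 11.9% of all tested genes did. LDHB, the lactate dehydrogenase subunit prominent in heart, had 379, 368 and 376 FPKM in TGFbeta1 libraries, against 425, 441 and 425 FPKM in controls (log2 change -0.20, SE 0.04, adjusted p = 0.0308). PDHA1, the catalytic alpha subunit of pyruvate dehydrogenase, had 25.6, 25.9 and 26.3 FPKM in TGFbeta1 libraries, against 31.7, 32.6 and 32.6 FPKM in controls (log2 change -0.31, SE 0.06, adjusted p = 0.0169). Both differences were small and larger than the spread within the groups. The LDHB call was lost in 10 of 15 alternatives, which include each of the 3 other scalings (0.0786 to 0.173), limma without trend (0.0837), the replicate block (0.105) and leaving out any library but control 3 (0.073 to 0.11). PDHA1 lost its call with the block (0.0684) and without TGFbeta1 1 (0.0636), TGFbeta1 2 (0.0596) or control 2 (0.0565).

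PDK1, a kinase that switches pyruvate dehydrogenase off and is a HIF target, had 1.62, 1.68 and 1.54 FPKM in TGFbeta1 libraries, against 2.31, 2.51 and 2.03 FPKM in controls. The groups were apart but the test was missed (log2 change -0.33, adjusted p = 0.0624). It was passed without control 3 (0.0484) and by limma without trend (0.044). LDHA, the lactate dehydrogenase subunit that HIF raises, had 217, 238 and 199.9 FPKM in TGFbeta1 libraries, against 199, 199 and 211 FPKM in controls (log2 change 0.10, adjusted p = 0.421). The log2 change of PDHB, the beta subunit of pyruvate dehydrogenase, was 0.11 (adjusted p = 0.732).

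None of the 3 pentose phosphate members passed the test. All 3 were at an unadjusted p under 0.05 (limma), as were 3661 of all 10454 tested genes. TKT, the transketolase gene, had 196, 195 and 186 FPKM in TGFbeta1 libraries, against 234, 214 and 250.4 FPKM in controls (log2 change -0.27, adjusted p = 0.0526), and the adjusted p was 0.0387 without control 2. PGD, which oxidises phosphogluconate, had 87.9, 83.1 and 86.7 FPKM in TGFbeta1 libraries, against 94.9, 95.7 and 108 FPKM in controls (log2 change -0.21, adjusted p = 0.101). TALDO1, the transaldolase gene, had 75.7, 70.4 and 83.0 FPKM in TGFbeta1 libraries, against 83.0, 102 and 105 FPKM in controls (log2 change -0.33, adjusted p = 0.103). The groups of TKT and PGD were apart, while those of TALDO1 met at TGFbeta1 3 and control 1.

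The oxygen sensing members did not pass the test (limma, 0 of 3 at an unadjusted p under 0.05). HIF1A, whose protein is controlled mainly by its stability, had 59.5, 58.0 and 59.1 FPKM in TGFbeta1 libraries, against 57.4, 56.3 and 57.6 FPKM in controls (log2 change 0.04, SE 0.05, adjusted p = 0.615). EPAS1, which encodes a related alpha subunit, had 43.6, 46.8 and 44.2 FPKM in TGFbeta1 libraries, against 45.3, 44.3 and 44.6 FPKM in controls (log2 change 0.0033, SE 0.06, adjusted p = 0.976). The spread within each group of these genes was small in the first set, so the RNA of both subunits differed little between its treated and control libraries. HIF1A's treated libraries all lay above its controls, as for 18.2% of all tested genes. EGLN3, a hypoxia-induced prolyl hydroxylase, was under the filter of 1 FPKM and untested. It had 0.0598, 0.412 and 0.673 FPKM in TGFbeta1 libraries, against 0.779, 0.655 and 1.10 FPKM in controls, with overlapping groups.

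**Figure D2:**
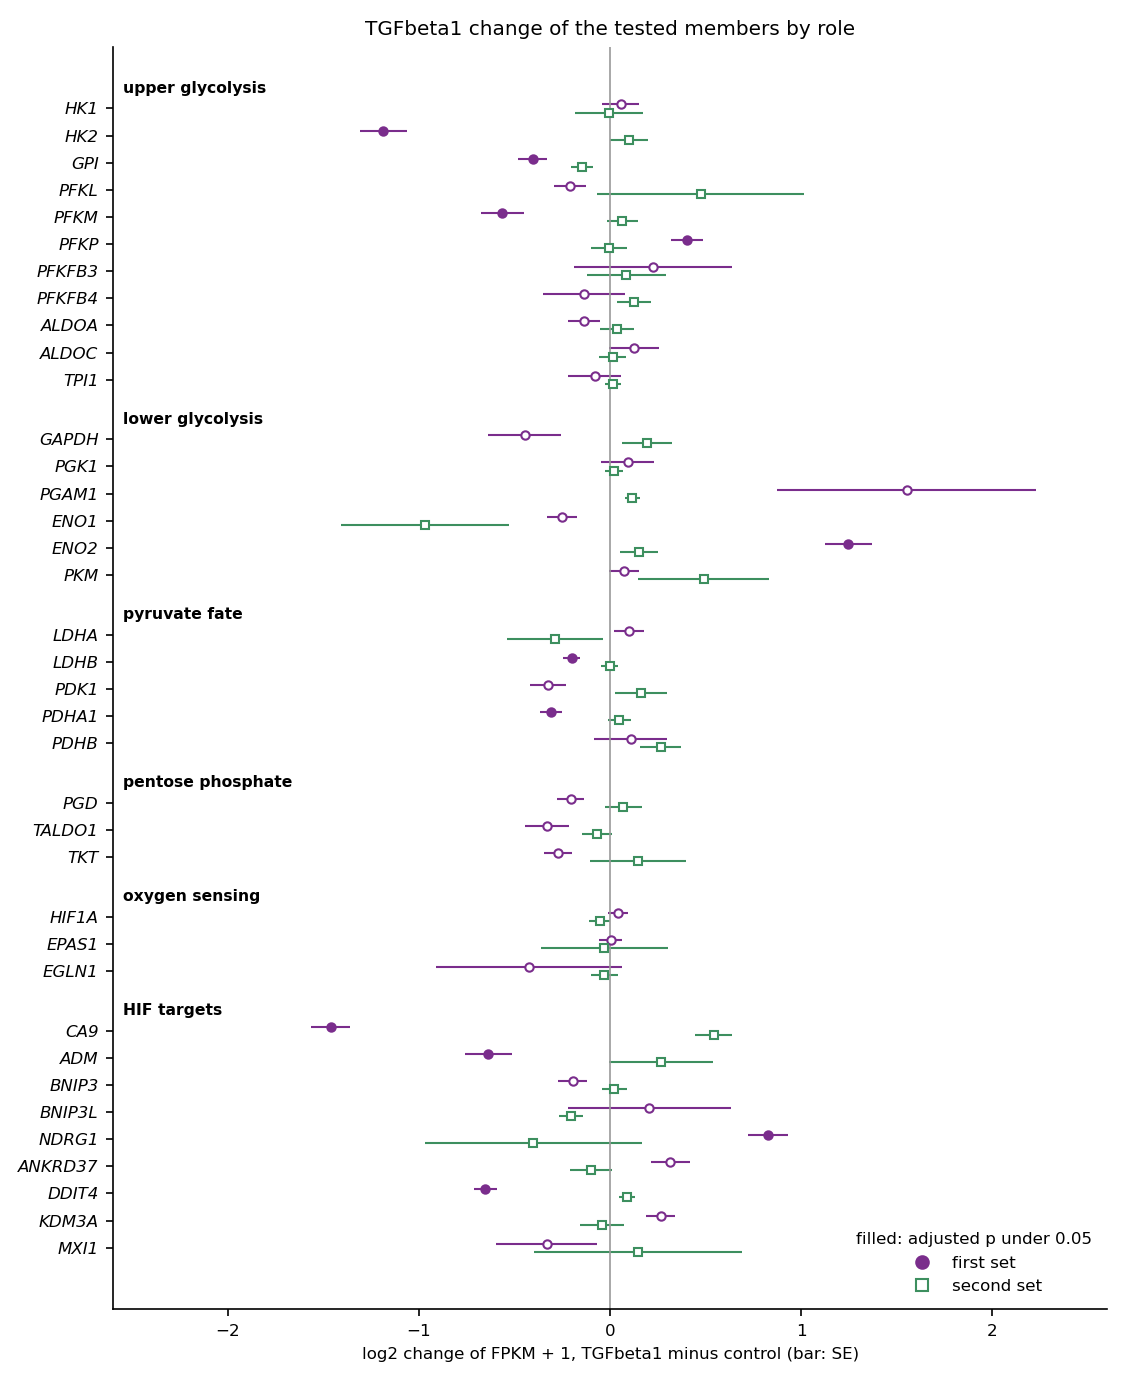
Log2 change of FPKM + 1 (TGFbeta1 minus control, bar: SE) of the 37 tested members by role, in the first set (purple circles) and the second set (green squares), with filled symbols for an adjusted p under 0.05. The 11 filled symbols are all of the first set, and the widest bars belong to genes such as PGAM1, NDRG1 and PFKL, in which libraries of a group lay far apart.

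The share of an isozyme in the summed FPKM of its family does not change when a library is rescaled. With 3 libraries against 3, shares are given as values without a test. HK2 made up 5.21% ± 0.768 of HK1 and HK2 together in TGFbeta1 libraries and 12.5% ± 1.90 in controls (SD, n = 3), with all treated libraries lower. PFKP made up 74.2% ± 0.259 of the 3 phosphofructokinase genes in TGFbeta1 libraries and 63.0% ± 0.839 in controls, with a gap far wider than either spread. ENO2 made up 0.274% ± 0.0307 of both enolases in TGFbeta1 libraries and 0.0330% ± 0.0127 in controls.

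LDHB made up 63.2% ± 2.33 of both lactate dehydrogenase subunits in TGFbeta1 libraries and 67.9% ± 1.05 in controls, and ALDOC 2.999% ± 0.203 of both aldolases in TGFbeta1 libraries and 2.498% ± 0.245 in controls (SD, n = 3). Neither pair of groups overlapped, although the differences were small beside those of HK2 and PFKP. The share of PFKFB4 overlapped, at 8.68% to 29.8% in TGFbeta1 libraries and 16.5% to 31.2% in controls. The shares of all 6 families overlapped between the second set's groups, with HK2 at 7.46% to 11.1% in libraries labelled TGFbeta1 and 6.81% to 10.6% in controls. PFKP was at 48.1% to 54.3% in libraries labelled TGFbeta1 and 48.9% to 60.4% in controls.

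**Figure D3:**
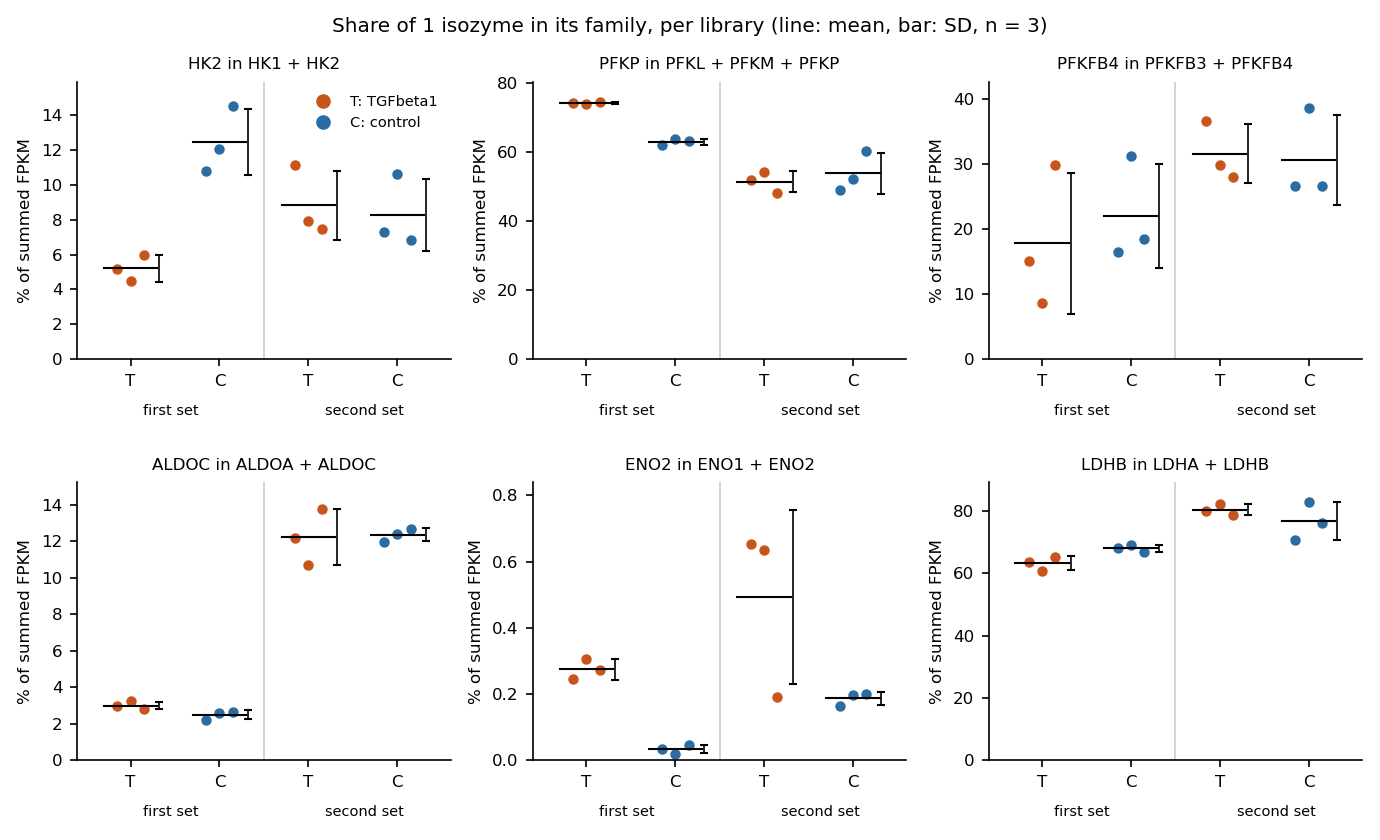
Share (% of summed FPKM, axis from 0) of 1 isozyme in its family in each library, for TGFbeta1 (T) and control (C) libraries of both sets, with mean and SD (n = 3). In the first set the groups are apart for every family but PFKFB3 and PFKFB4. All 6 overlap in the second set.

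The order of levels among members was led by GAPDH in the first set, with a mean of 1188 FPKM in TGFbeta1 libraries and 1632 FPKM in controls. ENO1 and ALDOA came next in both groups, with means of 759 and 609 FPKM in TGFbeta1 libraries, against 907 and 672 FPKM in controls. At the lower end stood EGLN3 and CA9 in TGFbeta1 libraries, with means of 0.381 and 0.616 FPKM, against ENO2 and EGLN3 in controls, with means of 0.305 and 0.845 FPKM. DDIT4 and LDHB were as abundant as the main enzymes, with means of 313 and 374 FPKM in TGFbeta1 libraries and 493 and 430.3 FPKM in controls.

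Several members had a library far from the others of its group, which set the error of their fold change; they were singled out after their values were seen. PGAM1, the phosphoglycerate mutase gene, had 257, 48.9 and 276 FPKM in TGFbeta1 libraries, against 50.7, 50.8 and 51.9 FPKM in controls of the first set. TGFbeta1 2 was thus at the level of the controls and the other 2 treated libraries were several-fold above it. The gene missed the test (log2 change 1.55, SE 0.68, adjusted p = 0.169), and passed it without TGFbeta1 2 (0.000838). Its near-identical copy PGAM4 had 9.61, 10.3 and 11.6 FPKM in TGFbeta1 libraries, against 10.8, 10.8 and 16.4 FPKM in controls. The second set's PGAM1 values showed no library apart, with 189, 190.0 and 186 FPKM in libraries labelled TGFbeta1, against 175, 171 and 176 FPKM in controls.

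EGLN1, the main oxygen-sensing prolyl hydroxylase, had 2.23, 7.14 and 6.84 FPKM in TGFbeta1 libraries, against 3.73, 8.97 and 9.59 FPKM in controls of the first set. Replicate 1 was the low library of both groups. BNIP3L, a mitophagy receptor related to BNIP3, had 3.21, 11.3 and 10.6 FPKM in TGFbeta1 libraries, against 5.99, 6.68 and 6.31 FPKM in controls. It missed the test (log2 change 0.21, adjusted p = 0.775) and passed it without TGFbeta1 1, which was the lowest of the 6 (0.0152). MXI1, a partner of MAX that opposes MYC, had 7.003, 7.898 and 6.66 FPKM in TGFbeta1 libraries, against 11.2, 12.1 and 5.80 FPKM in controls. Control 3 was the lowest library, and without it the adjusted p was 0.0185, against 0.428 with it.

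ENO1 had, in the second set, 323, 301 and 936 FPKM in libraries labelled TGFbeta1, against 892, 849 and 902 FPKM in controls. Library 6 was at the level of the controls, and the adjusted p was 0.488 with it and 0.0267 without it. In libraries 4 and 5 labelled TGFbeta1 a short ENO1 transcript, ENST00000497492.1_1, held 50.581 and 24.466 FPKM, against 0.000, 0.049 and 0.000 in controls, and 0.000 in library 6. NDRG1 had 4.28, 16.2 and 24.6 FPKM in libraries labelled TGFbeta1, against 17.6, 16.9 and 15.2 FPKM in controls. PFKL had 15.7, 21.8 and 20.0 FPKM in libraries labelled TGFbeta1, against 23.7, 19.2 and 4.98 FPKM in controls. EPAS1 had 29.95, 15.02 and 15.7 FPKM in libraries labelled TGFbeta1, against 14.5, 19.1 and 27.3 FPKM in controls (limma, adjusted p = 0.982). MXI1 was low in library 6 of both groups, with 38.2, 35.2 and 15.7 FPKM in libraries labelled TGFbeta1, against 37.2, 35.7 and 11.5 FPKM in controls. Its transcript ENST00000361248.8_1 was listed at 0.000 in these 2 libraries and at 24.059 to 26.548 FPKM in the other 4, and a listed 0 may stand for reads that the software did not assign.

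**Figure D4:**
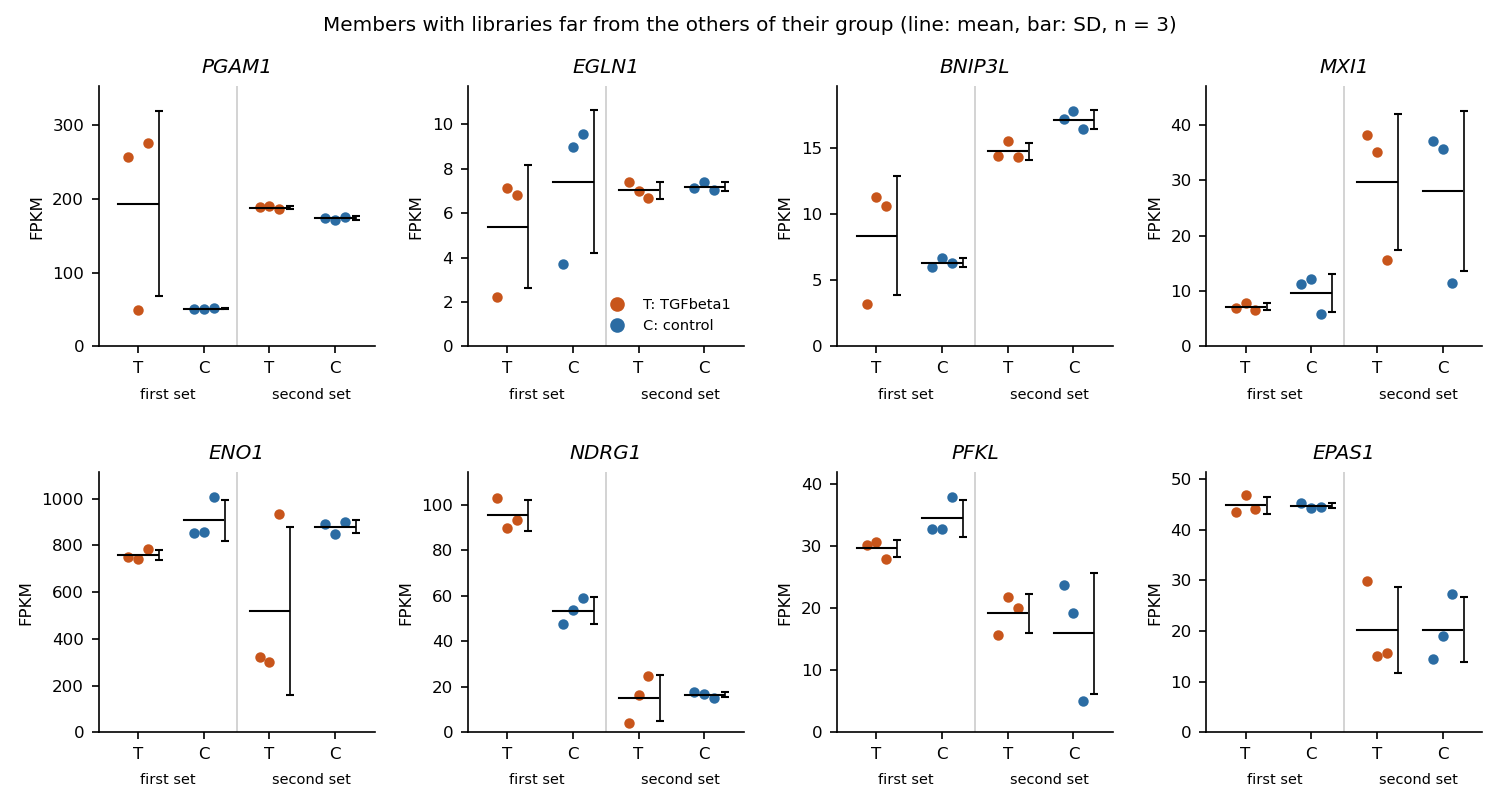
Level (FPKM, linear axis from 0) of 8 members in which a library lay far from the others of its group in at least 1 set, in TGFbeta1 (T) and control (C) libraries, with mean and SD (n = 3). PGAM1 in the first set shows 2 treated libraries at 257 and 276 FPKM and the other at 48.9, beside controls at 50.7 to 51.9.

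The second set gave no call among the members, at 0 of 37 tested (limma, 5 at an unadjusted p under 0.05), where 0.170% of all 10579 tested genes were higher and 0.151% lower (0.321% in either direction). The 5 genes were GPI, PGAM1, PDHB, CA9 and BNIP3L, and 1182 of all 10579 tested genes were under that unadjusted p. The members' median log2 change was 0.04 and that of all tested genes -0.0003. Libraries labelled TGFbeta1 all lay above the controls for CA9, DDIT4 and PGAM1 (8.11% of members, against 9.71% of all tested genes) and below them for BNIP3L and GPI (5.41%, against 9.62%). CA9 had 3.11, 3.67 and 3.88 FPKM in libraries labelled TGFbeta1, against 2.07, 2.18 and 2.12 FPKM in controls. The groups were apart in the opposite direction to the first set, without passing the test (log2 change 0.54, SE 0.10, adjusted p = 0.134; 0.115 to 0.357 over its alternatives). DDIT4 had 609, 613 and 624 FPKM in libraries labelled TGFbeta1, against 589, 579.5 and 566 FPKM in controls (log2 change 0.09, SE 0.04, adjusted p = 0.492).

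HK2 had 11.6, 11.5 and 10.4 FPKM in libraries labelled TGFbeta1, against 10.5, 11.5 and 9.15 FPKM in controls of the second set. ENO2 had 2.12, 1.92 and 1.78 FPKM in libraries labelled TGFbeta1, against 1.46, 1.67 and 1.82 FPKM in controls. The groups of both genes overlapped (adjusted p = 0.763 and 0.634). BNIP3L had 14.4, 15.5 and 14.3 FPKM in libraries labelled TGFbeta1, against 17.2, 17.8 and 16.4 FPKM in controls (log2 change -0.21, adjusted p = 0.333).

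Whether a member's change differed between the sets was tested with an interaction of set and agent, as the second set's log2 change minus the first's. The difference passed the test in 6 of 37 members, where 13.6% of all 10548 tested genes passed. It was positive for HK2 (1.28, adjusted p = 0.000599), PFKM (0.63, 0.0181), PDHA1 (0.35, 0.0218), CA9 (2.004, 8.14e-06) and DDIT4 (0.74, 0.000127), where 7.56% of all genes were. It was negative for ENO2 (-1.09, adjusted p = 0.000914), where 6.06% of all genes were. CA9, DDIT4 and ENO2 kept the call in every alternative that gave a value, HK2 and PFKM lost it over transcripts listed in both tables (0.113 and 0.198), and PDHA1 lost it in 5 of 21 alternatives (0.0504 to 0.15), among them the replicate block (0.0849) and leaving out TGFbeta1 5 or control 5. Of all genes called, 55.5% were positive as deposited and 40.4% with an equal sum. The sets differ in table, in listed transcripts and in the response of the check genes, which cannot be told apart from the difference itself. For NDRG1, whose first-set change was 0.83, the difference of -1.23 did not pass (adjusted p = 0.246).

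Sums can hide exchanges between transcripts, and several transcripts were listed for 31 members in the first set and for 25 in the second. Per transcript, 1 of 96 tested member transcripts rose and 2 fell in the first set, where 5.54% of all 18113 tested transcripts passed, and these were transcripts of NDRG1, CA9 and DDIT4. Of 106 in the second set 1 rose and 1 fell, where 0.221% of all 20392 passed, and both belonged to KDM3A. ENST00000312912.9_1 had 1.602, 1.735 and 2.020 FPKM in libraries labelled TGFbeta1, against 9.941, 9.389 and 8.448 FPKM in controls (log2 change -1.88, SE 0.12, adjusted p = 0.014). ENST00000409064.5_1 had 6.266, 7.946 and 7.966 FPKM in libraries labelled TGFbeta1, against 0.244, 0.366 and 0.000 FPKM in controls (log2 change 2.81, SE 0.19, adjusted p = 0.0149). Neither pair of groups overlapped, while the gene sum did, at 7.87, 9.68 and 9.99 FPKM in libraries labelled TGFbeta1, against 10.2, 9.75 and 8.45 FPKM in controls.

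These KDM3A transcripts start at 86668271 and 86668584 on chromosome 2 of hg19 and end within a few bases of each other. In the authors' deposited table the q-values were 0.0405 for ENST00000312912.9_1 and 0.0629 for ENST00000409064.5_1. The rise of ENST00000409064.5_1 lost its call at a pseudocount of 0.1. In the first set neither transcript passed the test. ENST00000312912.9_1 had 3.955, 4.895 and 3.639 FPKM in TGFbeta1 libraries, against 3.724, 3.536 and 1.487 FPKM in controls, and ENST00000409064.5_1 had 0.002, 0.000 and 1.800 FPKM in TGFbeta1 libraries, against 0.129, 0.778 and 4.965 FPKM in controls. The first table also lists 3 further transcripts, of which ENST00000542128.5_1 held 3.517 to 4.736 FPKM in TGFbeta1 libraries and 1.322 to 3.570 FPKM in controls. Reads of such overlapping transcripts are assigned by the software, and a wrong assignment was not tested.

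**Figure D5:**
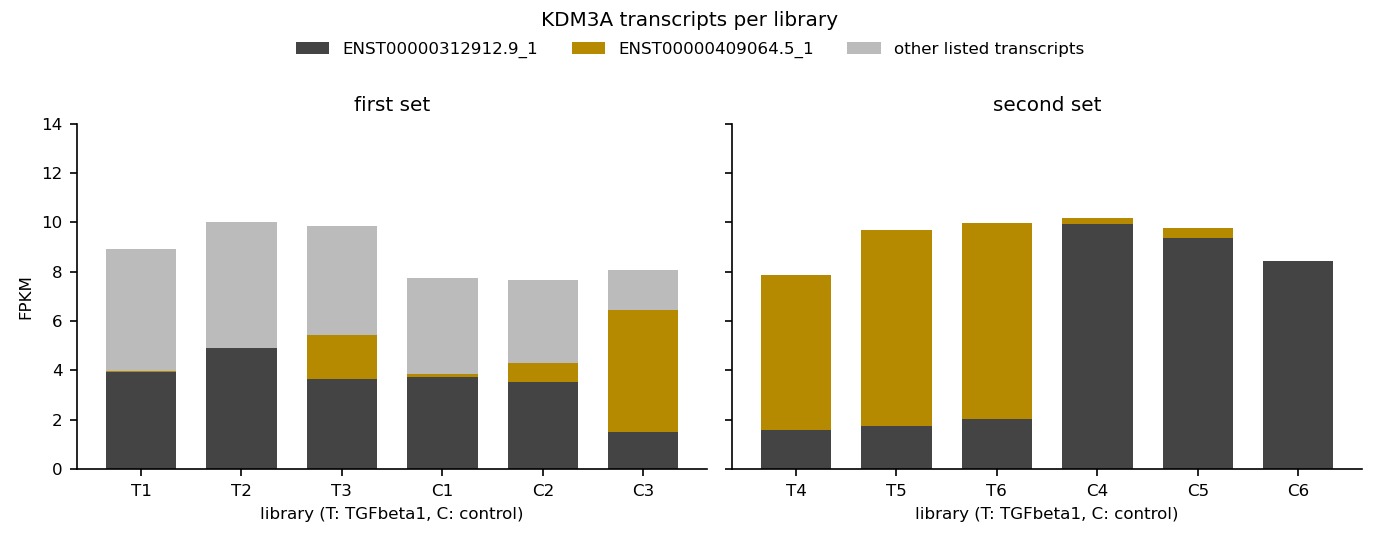
KDM3A transcripts in each library (stacked FPKM, axis from 0) of the first set (left) and the second set (right), with T for TGFbeta1 and C for control. In the second set ENST00000409064.5_1 (gold) fills most of the 3 T bars, at 6.266 to 7.966 FPKM, and ENST00000312912.9_1 (dark) nearly all of the 3 C bars, at 8.448 to 9.941 FPKM.

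The other genes of the same pathways were counted by list. Over the 6 lists 6 of 61 tested genes rose and 11 fell in the first set, where 9.00% of all tested genes rose and 11.9% fell. Of 10 tested pyruvate genes 4 fell and none rose in the first set. PDK4, another kinase that switches pyruvate dehydrogenase off, had 0.394, 0.345 and 0.378 FPKM in TGFbeta1 libraries, against 7.51, 8.33 and 6.80 FPKM in controls, a larger log2 change than in any member (-2.63, SE 0.10, adjusted p = 9.22e-05). The treated libraries of PDK4 were all under 1 FPKM, so only its controls carried it past the filter of 1 FPKM. PC, the pyruvate carboxylase gene, fell by 0.65 on the log2 scale and MPC2, a subunit of the mitochondrial pyruvate carrier, by 0.25 (adjusted p = 0.00771 and 0.0326). PDHX, which encodes a structural component of the pyruvate dehydrogenase complex, fell by 0.30 (adjusted p = 0.036) and lost its call in 12 of 15 alternatives (0.0518 to 0.108). MPC2 lost its call in 9 of 15 alternatives, which include each of the 3 other scalings and leaving out any library but control 3, with adjusted p of 0.0578 to 0.103. Of 6 tested pentose phosphate genes 1 fell, RPIA, the ribose phosphate isomerase gene, by 0.77 (adjusted p = 0.00197).

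Of 6 tested transport genes 1 rose and 1 fell, where 9.00% of all tested genes rose and 11.9% fell. SLC2A6, a hexose transporter of the GLUT family, rose by 0.83 (adjusted p = 0.00833) and lost its call over transcripts listed in both tables (0.0598). SLC16A7, a transporter of lactate and pyruvate, fell by 0.96 (adjusted p = 0.0144) and lost its call with the replicate block (0.0523) and without control 1 or control 2 (0.0521 and 0.0528). SLC2A1, the main glucose transporter, had 27.4, 29.7 and 28.7 FPKM in TGFbeta1 libraries, against 27.9, 31.1 and 33.1 FPKM in controls (adjusted p = 0.472). Of 10 tested other glycolysis enzymes 2 fell, GPD1L, which links glycolysis to glycerol phosphate, by 1.03 and the phosphoglucomutase gene PGM2 by 0.48 (adjusted p = 0.00437 and 0.0249). The PGM2 call was lost with the block (0.0803) and without any library but TGFbeta1 2 (0.0581 to 0.0784).

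CITED2, which competes with HIF for its coactivators, passed the test as 1 of 5 other oxygen sensing genes and fell by 1.66 (adjusted p = 0.00546). It had 3.89, 2.03 and 4.14 FPKM in TGFbeta1 libraries, against 11.8, 13.6 and 11.8 FPKM in controls. Of 24 tested other HIF targets 5 rose and 2 fell, where 9.00% of all tested genes rose and 11.9% fell. The collagen prolyl hydroxylase subunit P4HA2 rose by 1.07 (adjusted p = 0.00029), the secreted lipase inhibitor ANGPTL4 by 2.52 (0.00112) and the transcription repressor BHLHE40 by 1.24 (0.00151). ANGPTL4 had 90.5, 88.4 and 97.8 FPKM in TGFbeta1 libraries, against 13.3, 12.4 and 21.5 FPKM in controls. CA12, another membrane carbonic anhydrase, rose by 0.74 (adjusted p = 0.00254) and PLOD2, a lysyl hydroxylase of collagen, by 0.998 (0.0197). The mitochondrial protein gene FAM162A fell by 0.78 (0.00725) and PPP1R3C, a glycogen-targeting subunit of a protein phosphatase, by 1.02 (0.0277). The PLOD2 call was lost in 5 of 15 alternatives (0.0521 to 0.179), that of FAM162A with the replicate block (0.0507) and that of PPP1R3C in 4 of 14 (0.0793 to 0.0849). No gene of these 6 lists passed the test in the second set. Over the lists 11 of 60 were at an unadjusted p under 0.05 (limma), against 1182 of all 10579 tested genes.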

How the data were processed

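RNA of 12 MCF-12A libraries, 6 given TGFbeta1 and 6 controls, was measured by sequencing. Per the submitters' processing notes, the build was hg19, with HISAT2 2.0.4 and StringTie 1.2.3 among the tools, beside FastQC and cutadapt. No settings, strandedness or annotation release are given in the sources used here. FPKM per protein-coding transcript were deposited in 2 tables, each normalised on its own. The headers of the second table's group means name FPKM, while by their values these are means of log2(FPKM + 1). The first table names no unit, and its values were taken as FPKM. The second table also holds the authors' log2 fold change, linear fold ratio, p-value and q-value of each transcript, used only where their table is named. Listed transcripts had mean FPKM down to 0.0250 in the first table and 0.2503 in the second, so low transcripts had been filtered at different levels.

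Transcripts were summed per gene, with 163 symbols of the first table renamed through shared transcript identifiers. Genes with a mean of at least 1 FPKM were tested in R 4.3.3 with limma 3.58.1 (empirical Bayes with trend, two-sided, on log2(FPKM + 1)), within each set and for the interaction of set and agent, and p-values were adjusted by Benjamini-Hochberg over all genes tested. The procedure was run on simulated data, in which only genes above a low level were changed. Its recovery of changes in genes as low as CA9 or ENO2 was not tested. Python 3.11.15, numpy 2.4.6, pandas 2.3.3 and matplotlib 3.10.9 prepared tables and plots. Tried as alternatives were 3 other scalings (equal sum, quantiles, median of ratios), a minimum of 5 FPKM or none, a pseudocount of 0.1, limma without trend, the replicate block, sums over transcripts listed in both tables, and leaving out each library. The members and lists were chosen with earlier results of these data known. Named were all 38 members, the check genes, and of each other list at most the 3 called genes with the smallest p per set. CA12, PLOD2, FAM162A, PPP1R3C, PDHX, H6PD, SLC2A1 and PGAM4 were named outside this rule, after their values were seen. A few genes of the lists are not reported here and were left out of the lists' counts.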

Additional observations from a re-analysis of the deposited data

Results flagged for a closer look

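The change between TGFbeta1 and control libraries differed between the sets by a test of the difference itself (limma's interaction of set and agent, adjusted over all genes). Values are the second set's log2 change minus the first's. Among the members the difference was 1.28 for HK2, 0.63 for PFKM, 0.35 for PDHA1, 2.004 for CA9, 0.74 for DDIT4 and -1.09 for ENO2.

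Among the other pathway genes the difference passed the test in 12 of 60, where 13.6% of all tested genes passed. It was 2.81 for PDK4 (adjusted p = 2.44e-07), 1.43 for CITED2, 0.96 for SLC16A7, 0.79 for RPIA, 0.46 for PC and 0.80 for FAM162A. It was -1.95 for ANGPTL4, -1.10 for P4HA2, -1.01 for BHLHE40, -0.87 for SLC2A6, -1.23 for PLOD2 and -0.75 for H6PD. The differences for PC and SLC2A6 had adjusted p of 0.04 and 0.0444 and were lost in 14 and 12 of 20 alternatives, with adjusted p up to 0.0996 and 0.157. That for SLC16A7 was lost over transcripts listed in both tables (adjusted p = 0.599), as was that for PLOD2 (0.0945), and that for H6PD was lost in 8 of 21 alternatives (0.0514 to 0.0739). PDK4 had 8.27, 8.36 and 7.99 FPKM in libraries labelled TGFbeta1, against 7.11, 6.95 and 7.36 FPKM in controls of the second set.

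Among the TGFbeta check genes the difference was -1.42 for SMAD7, -3.68 for ITGB6, -3.70 for FN1, -3.65 for TGFBI and -2.40 for COL1A1.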

How the results depend on the processing

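The replicate number as a block gave 1211 calls over all genes in the first set (2186 without it), 4 lower members (8 without it) and 0 calls in the second set (34 without it). Deviations from the group means correlated across genes at 0.007 to 0.046 for same-numbered libraries and at -0.053 to 0.014 for the other pairs. Whether same-numbered libraries shared more than a number was not tested. The second set had 17 calls under an equal sum and 20 by limma without trend. Sums over only those transcripts that both tables list gave 5 lower members in the first set, 3 members with a positive difference between the sets (5 over all transcripts), and a first-set HK2 share difference of -5.07 percentage points (-7.25 over all). That share could not be computed for phosphofructokinase, since PFKL has no transcript version in both tables. Members with a negative difference between the sets numbered 0 at a minimum of 5 FPKM, which leaves ENO2 out, and 2 under an equal sum and under quantiles (1 as deposited). The second set had 0 member transcripts that rose at a pseudocount of 0.1 or a minimum of 5 FPKM (1 as reported).

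Leaving out each library in turn gave 1354 to 2030 calls in the first set, with 2 to 3 members higher and 3 to 10 lower, and 0 to 23 calls in the second set, with 0 members higher and 0 to 1 lower. Differences between the sets numbered 1207 to 1501, with 5 members positive and 1 to 2 negative. First-set share differences, in percentage points, were -8.07 to -6.21 for HK2, 10.8 to 11.6 for PFKP, -10.2 to 0.347 for PFKFB4, 0.361 to 0.589 for ALDOC, 0.225 to 0.256 for ENO2 and -5.77 to -3.46 for LDHB. Those of the second set were -0.545 to 1.76 for HK2, -4.79 to 0.953 for PFKP, -1.63 to 4.95 for PFKFB4, -0.898 to 0.628 for ALDOC, 0.225 to 0.457 for ENO2 and 0.768 to 6.84 for LDHB.

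Over single genes, 2335 values under an alternative kept their direction and their side of the threshold, 20 passed it newly and 119 no longer passed it. Genes other than members were counted only where the main fit called them, so these could lose a call but not gain 1. The sign changed in 64 values of 35 results, none of which passed the test in either setting. Of these, 49 came from leaving out a library, 6 from an equal sum, 5 from quantiles and 4 from transcripts listed in both tables. The last were -0.010 for KDM3A (0.265 over all transcripts) and -0.181 for PKM (0.074) in the first set, -0.551 for MXI1 in the second set (0.147) and -0.055 for its difference between the sets (0.477). The cause of the changes was not tested. Depth limits cannot be given, since no counts were used.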
